A study of Mus musculus with 15 samples.

Results

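T helper cells that were polarised toward Th17 or Th9 and activated in 2 ways are compared here by their response to activation. The response of a gene is its level under plate-bound antibody (PBAB) minus its level under antigen presented by cells (HA). The comparison is the difference of these differences, the Th17 response minus the Th9 response, over 8 of the 15 arrays of the series and all 15498 genes tested of 18194 with a named probe set. A positive value means that PBAB relative to HA gave a higher level in Th17 than in Th9 cultures. The rest are Th1 PBAB, Th1 HA and presenting-cell arrays, and the Th1 pairs share the estimate of spread.

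All cultures started from naive CD4+ T cells of the mouse strain 3A9, which carries a transgenic T cell receptor for hen egg lysozyme (HEL), and cells bearing that receptor were sorted with a clonotypic antibody. RNA was taken after 4 days. Th17 PBAB and Th17 HA cultures received IL-6 at 10 ng/ml, TGF-β at 3 ng/ml and IL-1α at 5 ng/ml with antibodies to IFN-γ (20 μg/ml), IL-4 (10 μg/ml) and IL-12 (10 μg/ml). Th9 PBAB and Th9 HA cultures received 10 ng/ml IL-4 and 1 ng/ml TGF-β and no such antibodies. PBAB wells were coated with antibodies, 1 μg/ml to CD3 and 10 μg/ml to CD28. HA wells held wild-type splenocytes, irradiated with 30 Gy, as antigen-presenting cells (APCs), with HEL at 2 μg/ml in Th17 and 1 μg/ml in Th9 cultures. Each of these groups had 2 arrays. The polarising mixture, the blocking antibodies and the HEL dose differ together between the lineages and cannot be told apart. HA arrays can hold RNA of the APCs, and in such bulk samples fewer cells of a type and less RNA per cell cannot be told apart either. The labels call the replicates biological and name no animal or culture, so the p-values rest on the spread between arrays of a group, part of which may be technical.

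Th17 cells are known for IL-17 and for defence at mucosal surfaces, and their differentiation depends on TGF-β and IL-6 signalling through STAT3. Th9 cells are driven by IL-4, acting through STAT6, together with TGF-β, and share much of the type 2 programme of GATA3, IL-4, IL-5 and IL-13. Antibodies to CD3 and CD28 engage the receptor complex and the costimulatory receptor directly, whereas an APC presents peptide on MHC class II and also supplies its own costimulatory ligands, cytokines and cell contacts.

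The labelled lineages were checked against their defining genes on the log2 scale of the arrays. Il17a, the signature cytokine of Th17 cells, read 11.85 and 11.82 in Th17 PBAB and 10.72 and 9.67 in Th17 HA, against 5.41 and 5.64 in Th9 PBAB and 5.65 and 6.04 in Th9 HA. It was high in both Th17 groups and near the filter level in Th9 cultures, which is the log2 value of 5.07 that a gene had to pass in at least 2 arrays to be tested. Il9, the cytokine that names Th9 cells, read 10.52 and 9.38 in Th17 PBAB and 9.01 and 10.41 in Th17 HA, against 8.31 and 5.33 in Th9 PBAB and 5.39 and 6.29 in Th9 HA. The Il9 signal thus went against the label, with group means of 9.95 and 9.71 in the Th17 groups against 6.82 and 5.84 in the Th9 groups and wide spread within pairs. Il4, Il5, Il13 and Gata3 were all higher in the Th9 means under both activations, and the groups are called by their labels here. Il17f, Il22 and Il23r were not analysed here. The T cell genes Cd3d and Cd3e stood at 10.56 or above in all 8 arrays.

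In all, 265 of 15498 genes (1.71%) had a response that differed between the lineages at a limma adjusted p under 0.05, which is what "called" means below. The Th17 response lay above the Th9 response in 94 genes (0.607%) and below it in 171 (1.1%). Among the called genes the size of the difference had a median of 1.77 and reached from 0.92 to 5.56 on the log2 scale. The count moved with single arrays. It was 64 without Th17 HA replicate 2, 75 without Th17 PBAB replicate 1, 78 without Th9 PBAB replicate 1, 118 without Th9 HA replicate 1, 141 without Th9 HA replicate 2 and 143 without Th17 PBAB replicate 2. Arrays of the same replicate number deviated together, and with that number as a replicate block 1476 genes (9.52%) were called, 472 above and 1004 below, all 265 among them. Normalizing the quantiles a further time gave 144 genes above and 159 below, and without Th9 HA replicate 2 the split was 86 above and 55 below.

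The response itself was called in 2648 genes in Th17 (17.1%), with 1032 higher (6.66%) and 1616 lower (10.4%) under PBAB. In Th9 it was called in 2126 genes (13.7%), with 1146 higher (7.39%) and 980 lower (6.32%). Single arrays moved these counts too, in fits without the replicate block. The Th17 count was 1214 without Th17 HA replicate 2, 1557 without Th17 PBAB replicate 1 and 1392 without Th17 PBAB replicate 2, and the Th9 count was 1056 without Th9 HA replicate 2, 1080 without Th9 PBAB replicate 1 and 1213 without Th9 PBAB replicate 2. The Th9 split turned round without Th9 HA replicate 2, with 452 higher and 604 lower, and without Th9 PBAB replicate 1, with 515 higher and 565 lower. With the replicate block the counts were 4709 in Th17 and 4056 in Th9. Across all genes the responses of the lineages, which come from separate arrays, correlated with a Pearson r of 0.60 and a Spearman rho of 0.49. This is a description across genes, which are not independent replicates. Of 1105 genes called in both lineages, 1071 had the same sign, and the 34 others, whose signs were opposite, are all among the 265.

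**Figure D1:**
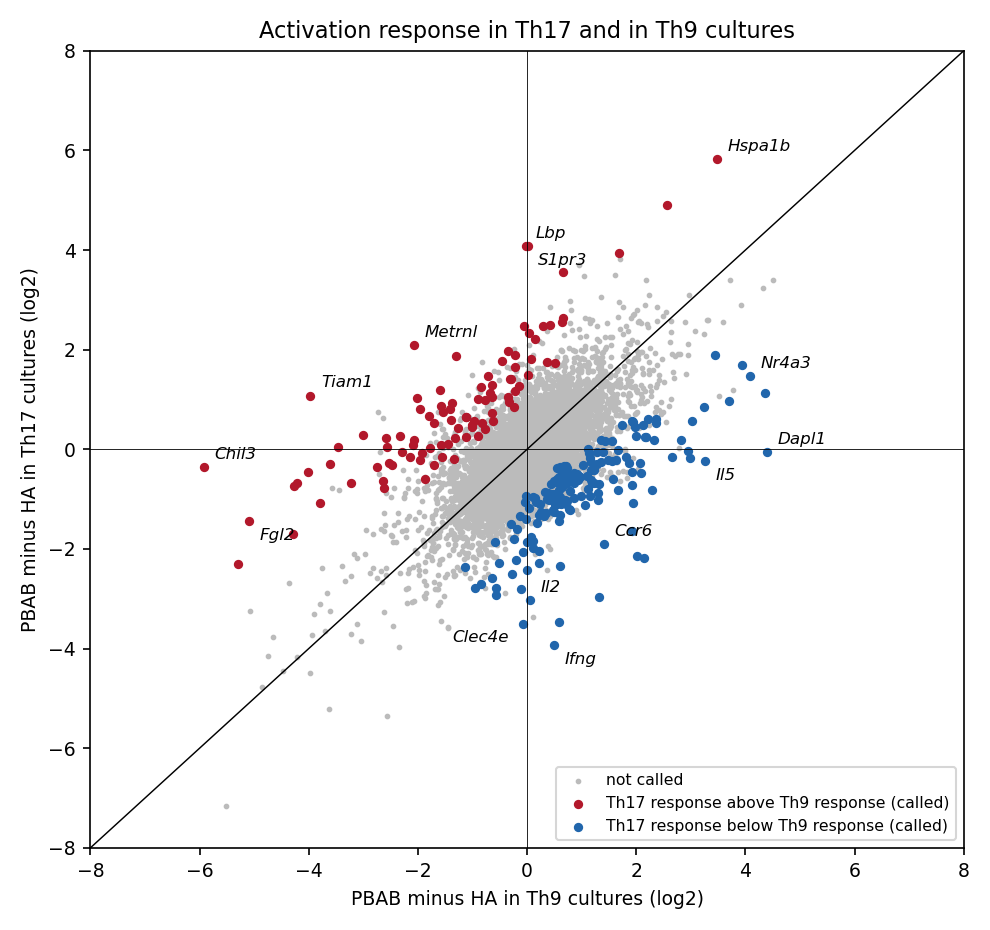
PBAB minus HA in Th17 cultures (vertical axis, log2) against PBAB minus HA in Th9 cultures (horizontal axis, log2), 1 point per gene tested. Red points are the 94 genes with a called difference above 0, blue points the 171 below 0, and the diagonal marks equal responses. Chil3 lies far to the left because its Th9 response was -5.91, and Dapl1 far to the right because its Th9 response was 4.39.

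The 265 genes differ in which lineage carries the response. The Th9 response alone was called in 117 genes, the Th17 response alone in 95, both in opposite directions in 34 and both in the same direction in 19. Over all 15498 genes the response was called in 2126 in Th9 and in 2648 in Th17. Both were called in 1105, of which 1071 had the same sign. For 177 of them 1 of the 4 group means stood apart from the other 3 by more than the range of those 3. High in 1 group alone were 18 genes in Th17 PBAB, 26 in Th17 HA, 41 in Th9 PBAB and 33 in Th9 HA. Low in 1 group alone were 20 genes in Th17 PBAB, 8 in Th17 HA, 14 in Th9 PBAB and 17 in Th9 HA. These classes describe genes already called and carry no test of their own, and the share with 1 group apart was not counted over all genes.

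The largest difference above 0 belonged to a set of genes that were high in Th9 HA cultures and lower in the 3 other groups. Chil3, which encodes the chitinase-like protein Ym1 that macrophages make after IL-4, read 2.97 and 2.91 in Th17 PBAB and 2.93 and 3.66 in Th17 HA, against 3.02 and 3.33 in Th9 PBAB and 9.11 and 9.07 in Th9 HA. Both Th9 HA arrays stood far above the rest, which lay below the filter level, and the difference was 5.56 ± 0.35 (SE, adjusted p = 0.000179). Il17rb, a subunit of the receptor for IL-25, read 4.99 and 4.92 in Th17 PBAB and 5.12 and 5.71 in Th17 HA, against 5.63 and 6.04 in Th9 PBAB and 10.04 and 9.65 in Th9 HA. Its Th9 HA arrays stood above every other array, and the difference was 3.55 ± 0.34 (SE, adjusted p = 0.00174). P2rx7, an ATP-gated ion channel, read 7.37 and 7.04 in Th17 PBAB and 7.35 and 7.66 in Th17 HA, against 7.61 and 7.43 in Th9 PBAB and 10.98 and 11.26 in Th9 HA. Here the other groups had a clear signal of their own between 7.04 and 7.66, and the difference was 3.30 ± 0.30 (SE, adjusted p = 0.00174). Fgl2, a fibrinogen-like protein that regulatory T cells and macrophages secrete, read 4.31 and 4.58 in Th17 PBAB and 5.30 and 6.47 in Th17 HA, against 4.55 and 4.39 in Th9 PBAB and 9.61 and 9.52 in Th9 HA. It fell under PBAB in both lineages, by 1.44 in Th17 and by 5.09 in Th9, with a difference of 3.65 ± 0.52 (SE, adjusted p = 0.0104).

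The same pattern held for the cytokine gene Il6, for Cdh1, which encodes the adhesion protein E-cadherin, for Car8, a carbonic anhydrase relative, and for Sval1. Their Th9 HA arrays lay between 5.53 and 8.16 and their other arrays between 2.77 and 4.36, below the filter level. The differences were 3.54 ± 0.55 (SE, adjusted p = 0.0149) for Il6, 3.54 ± 0.55 (SE, adjusted p = 0.0143) for Cdh1, 3.51 ± 0.45 (SE, adjusted p = 0.00685) for Car8 and 3.30 ± 0.45 (SE, adjusted p = 0.00843) for Sval1. The Il6 call was lost without Th9 HA replicate 1, Th9 PBAB replicate 1, Th17 HA replicate 2 or either Th17 PBAB array (adjusted p up to 0.0609), and that of Cdh1 without Th9 PBAB replicate 1 or Th17 PBAB replicate 2 (adjusted p up to 0.0602). The chemokine gene Ccl24 read 6.11 and 5.97 in Th17 PBAB and 5.88 and 6.11 in Th17 HA, against 5.90 and 6.35 in Th9 PBAB and 8.96 and 8.44 in Th9 HA, and its difference was 2.62 ± 0.31 (SE, adjusted p = 0.00432). Eomes, a T-box factor of cytotoxic and memory T cells, differed by 1.40 ± 0.26 (SE, adjusted p = 0.0275) in the same way, with -1.56 as its Th9 response. That call was lost without Th9 HA replicate 2, either Th9 PBAB array, either Th17 HA array or Th17 PBAB replicate 1 (adjusted p up to 0.107), with the 8 arrays fitted alone, and with the mean of all its probe sets (adjusted p = 0.0518).

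The arrays of APC alone, 1 per lineage, were set beside these genes. Chil3 read 7.19 in Th17 APC alone and 13.79 in Th9 APC alone, and Ccl24 read 6.59 in Th17 APC alone and 10.11 in Th9 APC alone. Both were thus higher in Th9 APC alone than in Th9 HA. For the others it was the reverse: Fgl2 read 4.93 in Th17 APC alone and 4.75 in Th9 APC alone, P2rx7 6.14 in Th17 APC alone and 6.51 in Th9 APC alone and Il17rb 6.54 in Th17 APC alone and 5.83 in Th9 APC alone, all below the Th9 HA arrays. APC-alone arrays had an interquartile range of 2.04 to 2.09 in these lineages, narrower than the 3.11 to 3.48 of the 8 activated arrays, and their levels are set beside the rest as a description.

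**Figure D2:**
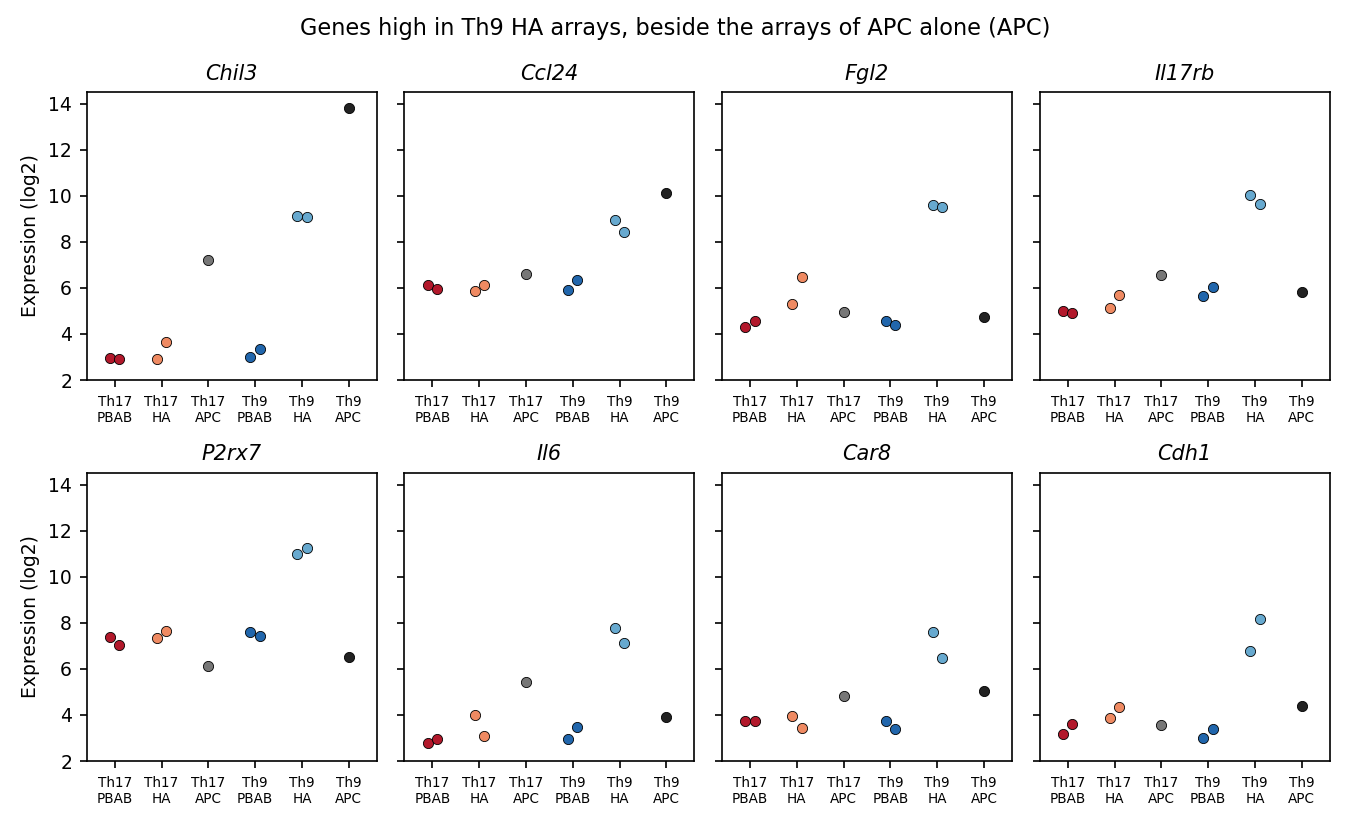
Expression (log2, vertical axis) of 8 genes that were high in Th9 HA, with 1 point per array in the 4 activated groups (2 arrays each) and the single array of APC alone of each lineage. Chil3 and Ccl24 were highest in Th9 APC alone (13.79 and 10.11), whereas Fgl2, Il17rb, P2rx7, Il6, Car8 and Cdh1 were highest in Th9 HA.

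Markers of macrophages moved with activation in both lineages. The mean level over 22 macrophage and monocyte genes was 5.16 and 5.40 in Th17 PBAB and 6.90 and 7.18 in Th17 HA, against 5.21 and 5.47 in Th9 PBAB and 6.48 and 6.17 in Th9 HA. Over 14 genes of alternatively activated macrophages, Chil3 and Ccl24 among them, the mean was 5.43 and 5.49 in Th17 PBAB and 6.10 and 6.09 in Th17 HA, against 5.68 and 5.88 in Th9 PBAB and 7.04 and 6.48 in Th9 HA. Of the 14 genes, 8 had a difference above 0 and 6 below, against 7157 and 8341 of all 15498 genes. Chil3 and Ccl24 were called above 0 and Pdcd1lg2 below 0, against 0.607% and 1.1% of all genes. Under PBAB 3 of the 14 fell in Th17, and in Th9 7 fell and 2 rose. Over all genes 10.4% fell in Th17, and in Th9 6.32% fell and 7.39% rose. Arg1, Mrc1 and Retnla, defining markers of that state, had differences of 0.36, 0.35 and 0.33 and were not called (adjusted p = 0.921, 0.812 and 0.792). Retnla stood at or below 5.01 in all 8 arrays. The part of macrophage RNA in the differences of Chil3 and Ccl24 was not tested.

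Another set above 0 rose under PBAB in Th17 cultures and had little or no response in Th9. Lbp, the lipopolysaccharide-binding protein, read 11.18 and 9.90 in Th17 PBAB and 6.58 and 6.35 in Th17 HA, against 5.19 and 5.71 in Th9 PBAB and 5.22 and 5.74 in Th9 HA. Only the Th17 PBAB arrays stood out, the Th17 response was 4.07 and the difference 4.10 ± 0.52 (SE, adjusted p = 0.00651). S1pr3, a receptor for sphingosine 1-phosphate, read 9.06 and 10.02 in Th17 PBAB and 5.83 and 5.11 in Th17 HA, against 6.46 and 5.66 in Th9 PBAB and 6.07 and 6.02 in Th9 HA. Again the Th17 PBAB pair was apart, with a difference of 4.06 ± 0.76 (SE, adjusted p = 0.0279), though the call was lost without either Th9 HA array, either Th9 PBAB array, Th17 HA replicate 2 or either Th17 PBAB array (adjusted p up to 0.113). Ero1a, an oxidase of disulfide bond formation that hypoxia induces, read 12.68 and 12.79 in Th17 PBAB and 10.54 and 9.94 in Th17 HA, against 12.57 and 12.77 in Th9 PBAB and 12.61 and 11.89 in Th9 HA. For Ero1a it was the Th17 HA pair that was low, and the difference was 2.08 ± 0.39 (SE, adjusted p = 0.0289). Its call was lost without any 1 activated array other than either Th1 HA array, Th9 HA replicate 2 or Th17 HA replicate 1 (adjusted p up to 0.113), and with the mean of all its probe sets the adjusted p was 0.1.

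Hypoxia genes as a list lay above 0: 17 of 19 members tested had a positive difference, against 7157 of 15498 over all genes. Their median was 0.71, against -0.04 over all genes. Only Ero1a was called (2 with the replicate block), against 1.71% of all genes (9.52% with the block). Under PBAB 10 members rose in Th17, with a median response of 1.09, and 1 rose in Th9, with a median of 0.42. Over all genes 6.66% rose in Th17 and 7.39% in Th9. Egln3, a prolyl hydroxylase of the HIF pathway, had a difference of 1.43 ± 0.50 (SE, adjusted p = 0.195), and Slc2a1, the glucose transporter GLUT1, one of 1.13 ± 0.47 (SE, adjusted p = 0.307). In the glycolysis list 14 of 16 differences were positive and limma called none, with 0 members at an unadjusted p under 0.05 and 1 called with the block. In the cholesterol synthesis list 16 of 17 were positive, and limma called none, with 4 at an unadjusted p under 0.05 and 4 called with the block.

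The inducible heat shock genes Hspa1b and Hspa1a rose in both lineages, with a larger step in Th17. Hspa1b, which encodes the chaperone HSP70, read 10.68 and 10.06 in Th17 PBAB and 4.48 and 4.60 in Th17 HA, against 8.40 and 7.99 in Th9 PBAB and 4.60 and 4.84 in Th9 HA. The HA arrays of both lineages lay below the filter level and all PBAB arrays well above it, with responses of 5.82 in Th17 and 3.48 in Th9 and a difference of 2.35 ± 0.38 (SE, adjusted p = 0.0171). Its call was lost without Th9 HA replicate 2, Th17 HA replicate 2 or Th17 PBAB replicate 1 (adjusted p up to 0.063). The neighbouring copy Hspa1a, whose probes may share transcripts with Hspa1b, differed by 2.34 ± 0.49 (SE, adjusted p = 0.0445), a call lost without any 1 activated array other than Th9 PBAB replicate 1 or Th17 PBAB replicate 2 (adjusted p up to 0.138). Hspd1, the mitochondrial chaperone HSP60, went the other way at -1.15 ± 0.23 (SE, adjusted p = 0.0387), from responses of -0.60 in Th17 and 0.55 in Th9, and its call was lost without any 1 of the 12 activated arrays (adjusted p up to 0.15). The remaining 10 of 13 heat shock genes tested were not called, and the list's median was -0.17. Over all genes 1.71% were called and the median was -0.04.

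Some genes answered in opposite directions. Tiam1, an activator of the GTPase Rac in T cell trafficking, read 8.86 and 8.71 in Th17 PBAB and 7.97 and 7.45 in Th17 HA, against 5.98 and 5.44 in Th9 PBAB and 9.94 and 9.42 in Th9 HA. It rose by 1.07 in Th17 and fell by 3.97 in Th9, and the difference was 5.04 ± 0.42 (SE, adjusted p = 0.00114). Metrnl, a secreted immune regulator, read 7.49 and 7.24 in Th17 PBAB and 5.75 and 4.81 in Th17 HA, against 5.86 and 6.28 in Th9 PBAB and 8.44 and 7.85 in Th9 HA. Its responses, 2.09 in Th17 and -2.07 in Th9, mirrored each other and gave a difference of 4.16 ± 0.48 (SE, adjusted p = 0.00417). Cyp11a1, the enzyme that opens steroid synthesis, read 9.56 and 8.90 in Th17 PBAB and 7.52 and 7.19 in Th17 HA, against 8.80 and 8.39 in Th9 PBAB and 10.27 and 9.53 in Th9 HA, with a difference of 3.18 ± 0.42 (SE, adjusted p = 0.00718). Another Cyp11a1 probe set moved the opposite way at an unadjusted p under 0.05, and the mean of its probe sets differed by 0.75 (adjusted p = 0.101). With the mean of all probe sets the difference was 2.29 for Tiam1, 2.04 for Metrnl, 2.39 for Lbp and 2.27 for S1pr3, all still called.

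St8sia6, a sialyltransferase, showed the mirror image with 4.40 and 4.27 in Th17 PBAB and 6.48 and 6.49 in Th17 HA, against 7.75 and 6.72 in Th9 PBAB and 5.09 and 5.33 in Th9 HA. Its difference was -4.17 ± 0.41 (SE, adjusted p = 0.00174). Lad1, a protein of anchoring filaments, read 4.68 and 3.74 in Th17 PBAB and 6.16 and 5.53 in Th17 HA, against 8.53 and 6.99 in Th9 PBAB and 6.12 and 5.53 in Th9 HA, so its pairs were wide and its Th17 HA and Th9 HA arrays overlapped. The difference of Lad1 was -3.57 ± 0.68 (SE, adjusted p = 0.0296), and the call was lost without either Th9 HA array, Th9 PBAB replicate 1, either Th17 HA array or either Th17 PBAB array (adjusted p up to 0.101). Ccr6, the receptor for CCL20 that marks Th17 cells, read 8.22 and 7.29 in Th17 PBAB and 9.69 and 9.63 in Th17 HA, against 7.10 and 6.78 in Th9 PBAB and 5.45 and 5.62 in Th9 HA. It fell under PBAB in Th17 (-1.90) and rose in Th9 (1.40), with a difference of -3.31 ± 0.43 (SE, adjusted p = 0.00685). Upp1, an enzyme of uridine salvage, responded by -1.08 in Th17 and 1.94 in Th9 and differed by -3.02 ± 0.43 (SE, adjusted p = 0.0106), a call lost without Th17 PBAB replicate 1 (adjusted p up to 0.0523).

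**Figure D3:**
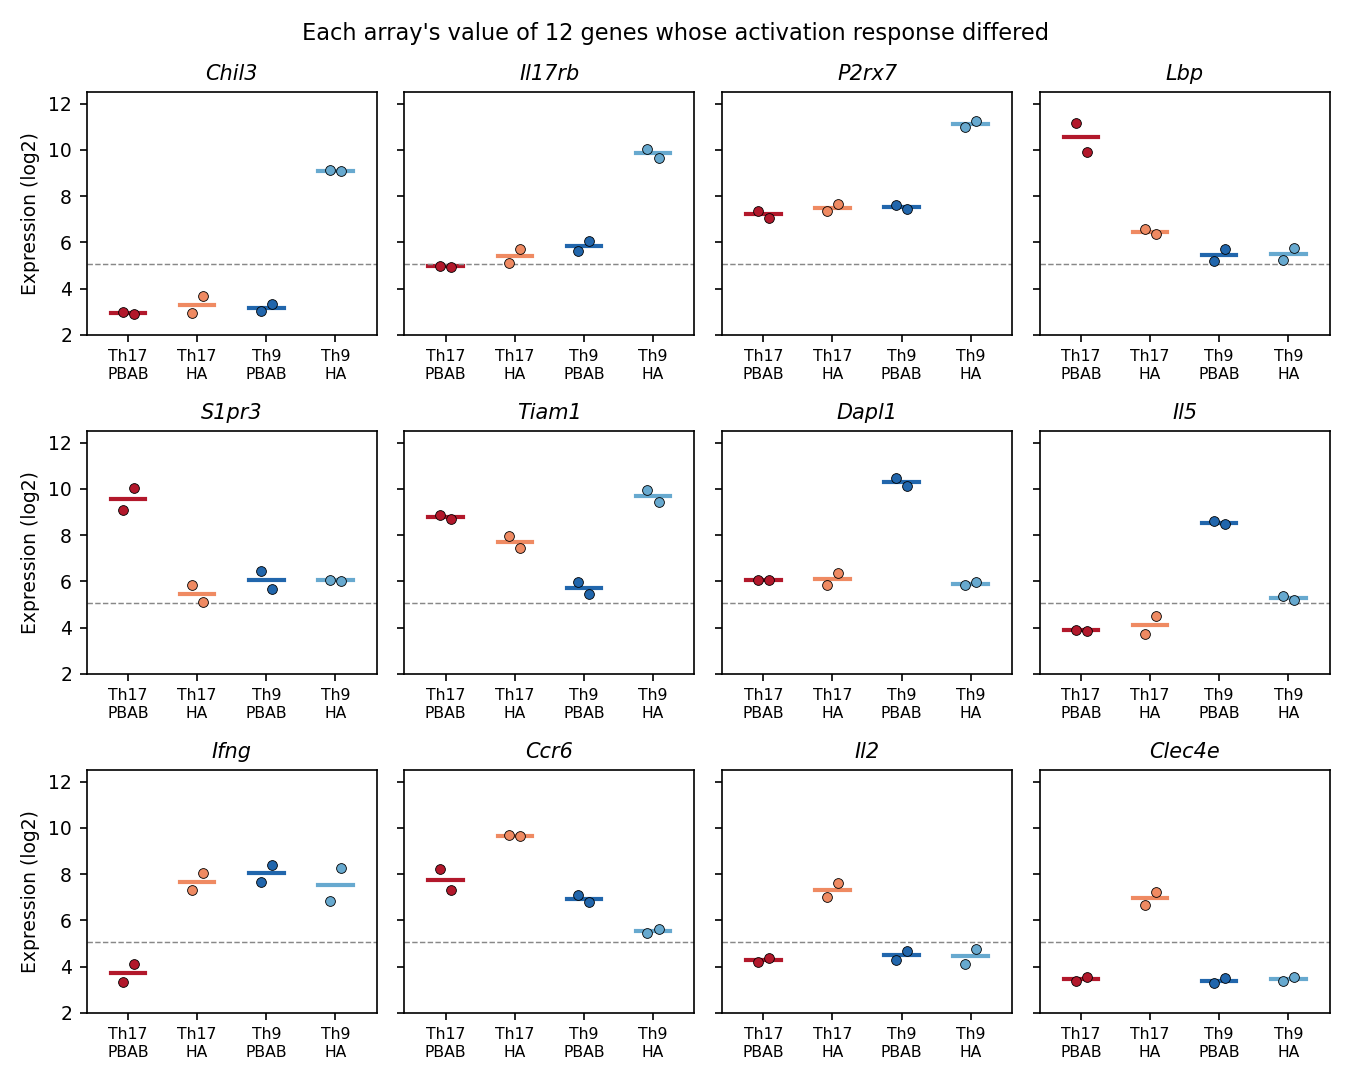
Expression (log2, vertical axis) of 12 called genes, with 1 point per array and a bar at the mean of the 2 arrays of each group. The dashed line is the filter level of 5.07. Chil3, Il17rb and P2rx7 are high in Th9 HA, Lbp and S1pr3 in Th17 PBAB, Dapl1 and Il5 in Th9 PBAB, and Il2 and Clec4e in Th17 HA.

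Below 0, the largest difference belonged to genes that rose under PBAB in Th9 cultures. Dapl1, related to a death-associated protein, read 6.04 and 6.05 in Th17 PBAB and 5.85 and 6.36 in Th17 HA, against 10.46 and 10.13 in Th9 PBAB and 5.85 and 5.95 in Th9 HA. Only Th9 PBAB was high, and the difference was -4.45 ± 0.30 (SE, adjusted p = 0.000193). Il5, the type 2 cytokine that drives eosinophils, read 3.89 and 3.87 in Th17 PBAB and 3.74 and 4.50 in Th17 HA, against 8.59 and 8.49 in Th9 PBAB and 5.37 and 5.20 in Th9 HA. Both Th17 means lay below the filter level, and the difference was -3.49 ± 0.34 (SE, adjusted p = 0.00174). Plek, a substrate of protein kinase C, read 7.97 and 7.96 in Th17 PBAB and 6.76 and 6.91 in Th17 HA, against 10.02 and 10.01 in Th9 PBAB and 6.08 and 5.24 in Th9 HA. It rose in both lineages, by 1.13 in Th17 and by 4.35 in Th9, with a difference of -3.22 ± 0.37 (SE, adjusted p = 0.00417). Btla, an inhibitory receptor, read 9.42 and 9.60 in Th17 PBAB and 9.62 and 9.75 in Th17 HA, against 10.07 and 9.64 in Th9 PBAB and 7.06 and 6.66 in Th9 HA; here Th9 HA was the low group, and the difference was -3.16 ± 0.34 (SE, adjusted p = 0.00267).

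Nr4a3, an orphan nuclear receptor induced by T cell receptor signals, read 9.22 and 9.47 in Th17 PBAB and 7.78 and 7.96 in Th17 HA, against 10.70 and 10.93 in Th9 PBAB and 6.76 and 6.68 in Th9 HA. All PBAB arrays lay above all HA arrays, and the step was larger in Th9, with a difference of -2.62 ± 0.27 (SE, adjusted p = 0.0022). With the mean of all its probe sets the difference was -0.88 (adjusted p = 0.0944). Of 22 early T cell receptor response genes tested, only Nr4a3 was called, 4 were with the replicate block, and 17 had a difference below 0 (median -0.63). Over all genes 1.71% were called, 9.52% with the block, and 8341 of 15498 lay below 0. The list's median level was 9.23 and 9.02 in Th17 PBAB and 8.85 and 8.42 in Th17 HA. In Th9 PBAB it was 9.50 and 9.65, and in Th9 HA 8.63 and 7.62, the widest pair. The members' median response was 0.41 in Th17 and 1.15 in Th9, with 6 members risen in Th17 and 7 in Th9. Over all genes 6.66% rose in Th17 and 7.39% in Th9. Pdcd1lg2 and Cd274, the PD-1 ligands PD-L2 and PD-L1, had differences of -2.49 ± 0.31 (SE, adjusted p = 0.00542) and -1.33 ± 0.27 (SE, adjusted p = 0.0396). Pdcd1lg2 rose by 1.67 in Th9 and fell by 0.82 in Th17, whereas the Cd274 call was lost without any 1 activated array other than either Th1 HA array or Th17 PBAB replicate 2 (adjusted p up to 0.131). In the list of 13 inhibitory receptors and ligands 2 were called below 0 (5 with the block), and 7 rose in Th9 against 1 in Th17. Btla, Pdcd1lg2 and Cd274 were all called below 0, so the list's 2 calls do not cover all of them. Over all genes 1.1% were called below 0, or 1004 of 15498 with the block.

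Genes of cytotoxic granules and cell death followed. Nkg7, a granule membrane protein, read 5.28 and 7.23 in Th17 PBAB and 7.54 and 9.31 in Th17 HA, against 11.36 and 11.80 in Th9 PBAB and 8.81 and 10.05 in Th9 HA. Its pairs were wide, with adjusted p at the threshold: -4.32 ± 0.93 (SE, adjusted p = 0.0498), lost without any 1 activated array other than Th17 HA replicate 1 or Th17 PBAB replicate 2 (adjusted p up to 0.16). Serpinb6b, an inhibitor of granule proteases, differed by -2.63 ± 0.51 (SE, adjusted p = 0.0329), a call lost without either Th9 HA array, Th9 PBAB replicate 2, either Th17 HA array or Th17 PBAB replicate 1 (adjusted p up to 0.104). Of 15 cytotoxic granule genes 2 were called, 5 with the replicate block, against 1.71% and 9.52% of all genes. Over 10 marker genes of NK, CD8 and gamma-delta T cells the mean level was 5.87 and 6.47 in Th17 PBAB and 7.51 and 7.95 in Th17 HA, against 5.84 and 7.06 in Th9 PBAB and 6.95 and 7.53 in Th9 HA. Their median response was -1.49 in Th17 and -0.92 in Th9. Of these 10 differences 8 lay below 0, against 8341 of 15498 over all genes, and Eomes was the 1 called, above 0. The part of such cells in the differences of Nkg7 and Serpinb6b was not tested. Pmaip1, the p53 target NOXA that promotes apoptosis, read 9.05 and 9.32 in Th17 PBAB and 9.77 and 9.52 in Th17 HA, against 9.72 and 10.09 in Th9 PBAB and 8.42 and 7.55 in Th9 HA, with a difference of -2.38 ± 0.37 (SE, adjusted p = 0.0149), lost without Th17 HA replicate 2 or Th17 PBAB replicate 1 (adjusted p up to 0.0633). It was the 1 call among 17 p53 targets (5 with the block), of which 9 rose in Th9 and 4 in Th17. Over all genes 7.39% rose in Th9 and 6.66% in Th17.

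Several other genes below 0 fell under PBAB in Th17. Ifng, the cytokine of Th1 cells, read 3.32 and 4.13 in Th17 PBAB and 7.30 and 8.02 in Th17 HA, against 7.65 and 8.41 in Th9 PBAB and 6.84 and 8.24 in Th9 HA. The Th17 PBAB pair lay below the filter level and the 3 other groups overlapped, so that the Th17 response was -3.94, the Th9 response 0.49 and the difference -4.43 ± 0.68 (SE, adjusted p = 0.0143). That call was lost without Th17 HA replicate 2 or Th17 PBAB replicate 1 (adjusted p up to 0.062). Il2, the growth factor of T cells, read 4.19 and 4.36 in Th17 PBAB and 7.0 and 7.61 in Th17 HA, against 4.29 and 4.69 in Th9 PBAB and 4.13 and 4.75 in Th9 HA. It was above the filter level in Th17 HA alone, and the difference was -3.08 ± 0.39 (SE, adjusted p = 0.00611). Ipcef1, a partner of cytohesin exchange factors, read 4.99 and 4.51 in Th17 PBAB and 8.08 and 8.37 in Th17 HA, against 7.91 and 7.14 in Th9 PBAB and 6.64 and 7.22 in Th9 HA, and only Th17 PBAB was low. Its difference was -4.07 ± 0.53 (SE, adjusted p = 0.00685), or -1.41 with the mean of all its probe sets. Ccl3, a chemokine of activated T cells and macrophages, read 4.31 and 4.28 in Th17 PBAB and 6.65 and 7.87 in Th17 HA, against 6.48 and 7.06 in Th9 PBAB and 4.95 and 5.95 in Th9 HA, with a difference of -4.29 ± 0.57 (SE, adjusted p = 0.00695). Its relative Ccl4, whose Th17 response of -1.02 was not called, differed by -2.31 ± 0.46 (SE, adjusted p = 0.0372), a call lost without any 1 activated array other than either Th1 HA array or Th17 HA replicate 1 (adjusted p up to 0.145).

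The promoters of Chil3, Ifng, Il2 and Il5 are shown as 1 called gene each of the patterns high in Th9 HA, low in Th17 PBAB, high in Th17 HA and high in Th9 PBAB. They are picked examples and do not stand for their patterns. Il2 (-3.08) and Il5 (-3.49) were not the largest of theirs, since Clec4e (-3.42) and Dapl1 (-4.45) lay further below 0. For Clec4e and Dapl1 no match to either motif marked below was found. Each is the 250 bases before the gene's start, 5′ to 3′ on the gene's strand, from RefSeq on GRCm38.p6. The Chil3 window is chr3:106167565-106167814, minus strand, the Ifng window chr10:118440796-118441045, plus strand, the Il2 window chr3:37125955-37126204, minus strand and the Il5 window chr11:53720544-53720793, plus strand. Capitals mark a motif of STAT factors with 3 spacer bases, TTCNNNGAA, and the core of NFAT sites, TGGAAA, on either strand, which do not overlap in these windows. The STAT motif with 4 spacer bases, TTCNNNNGAA, and motifs of heat shock factors, AP-1 and HIF-1 were also searched. None of these had a match in the windows shown.
Chil3: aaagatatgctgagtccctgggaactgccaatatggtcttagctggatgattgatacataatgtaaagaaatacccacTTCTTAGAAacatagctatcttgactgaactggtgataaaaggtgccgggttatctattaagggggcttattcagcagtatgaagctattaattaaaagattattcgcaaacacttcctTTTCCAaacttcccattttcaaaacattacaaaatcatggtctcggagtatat
Ifng: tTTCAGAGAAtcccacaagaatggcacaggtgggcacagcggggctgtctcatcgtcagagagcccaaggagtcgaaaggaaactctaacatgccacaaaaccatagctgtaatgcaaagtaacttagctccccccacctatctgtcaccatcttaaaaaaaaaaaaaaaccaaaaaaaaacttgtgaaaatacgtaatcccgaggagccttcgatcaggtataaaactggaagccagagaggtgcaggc
Il2: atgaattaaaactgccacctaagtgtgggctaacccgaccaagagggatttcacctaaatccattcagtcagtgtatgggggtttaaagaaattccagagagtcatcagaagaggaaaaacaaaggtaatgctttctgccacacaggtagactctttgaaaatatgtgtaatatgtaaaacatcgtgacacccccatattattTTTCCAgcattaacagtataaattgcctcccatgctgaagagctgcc
Il5: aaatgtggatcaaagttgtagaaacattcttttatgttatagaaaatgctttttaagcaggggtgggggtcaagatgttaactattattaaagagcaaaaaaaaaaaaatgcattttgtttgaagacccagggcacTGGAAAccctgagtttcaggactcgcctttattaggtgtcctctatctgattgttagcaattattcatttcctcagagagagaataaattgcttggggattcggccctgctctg
The Chil3 window holds TTCTTAGAA with its first base 172 bases before the start and the NFAT core 53 bases before it. The Ifng window holds TTCAGAGAA at 249 bases, and the NFAT core starts 47 bases before Il2 and 114 bases before Il5. Of 32851 windows of the same length, 7.02% hold the STAT motif with 3 spacer bases, 5.85% that with 4 and 18.6% the NFAT core. Among the 51 named genes called, 43 had a promoter in the table. The STAT motif with 3 spacer bases was in 5, that with 4 in 3 and the NFAT core in 12. A gene was counted if any of its windows matched, and some genes had several windows. These counts are per gene and the shares above are per window, so they cannot be compared directly. These matches are a description of letters and not of binding.

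Myeloid genes were among those high in Th17 HA. Clec4e, the pattern receptor Mincle of macrophages, read 3.36 and 3.55 in Th17 PBAB and 6.68 and 7.23 in Th17 HA, against 3.27 and 3.49 in Th9 PBAB and 3.36 and 3.55 in Th9 HA. It was above the filter level in Th17 HA alone, and the difference was -3.42 ± 0.33 (SE, adjusted p = 0.00174), or -2.05 with the mean of its probe sets. Marco, a scavenger receptor, read 5.06 and 5.37 in Th17 PBAB and 7.70 and 7.92 in Th17 HA, against 5.29 and 5.25 in Th9 PBAB and 6.10 and 5.72 in Th9 HA, with a difference of -1.95 ± 0.26 (SE, adjusted p = 0.00685). Apoe differed by -2.21 ± 0.41 (SE, adjusted p = 0.0279) and S100a8, a calcium-binding protein of neutrophils and monocytes, by -2.03 ± 0.35 (SE, adjusted p = 0.0206). The Apoe call was lost without Th9 PBAB replicate 1, either Th17 HA array or either Th17 PBAB array (adjusted p up to 0.106), and the S100a8 call without Th9 HA replicate 1, either Th9 PBAB array, Th17 HA replicate 2 or either Th17 PBAB array (adjusted p up to 0.0755). Of the 22 macrophage and monocyte genes 2 were called below 0 (5 with the block) and 18 lay below 0, with a median of -0.68. Over all 15498 genes 1.1% were called below 0 (1004 with the block) and 8341 lay below 0. Under PBAB 13 of the 22 fell in Th17 and 8 fell in Th9, where 1 rose. Over all genes 10.4% fell in Th17 and 6.32% fell in Th9, where 7.39% rose. Clec4e read 4.98 in Th17 APC alone and 4.81 in Th9 APC alone, below Th17 HA, while Marco read 8.57 in Th17 APC alone and 7.31 in Th9 APC alone, of which the Th17 value lay above Th17 HA. The part of macrophage RNA in these calls was not tested.

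Among 17 genes known from B cells, 2 were called below 0, against 1.1% of all genes. Of the 17, 11 lay below 0 and 6 above, against 8341 and 7157 of all 15498 genes. Their median was -0.12, against -0.04 over all genes. Ighm, the heavy chain of IgM, read 8.08 and 8.68 in Th17 PBAB and 10.97 and 11.22 in Th17 HA, against 9.47 and 9.76 in Th9 PBAB and 10.71 and 10.22 in Th9 HA, and its difference was -1.87 ± 0.33 (SE, adjusted p = 0.0233). Another Ighm probe set differed by -2.49, and the remaining ones had no unadjusted p under 0.05. The call was lost without Th9 HA replicate 2, either Th9 PBAB array, Th17 HA replicate 2 or Th17 PBAB replicate 1 (adjusted p up to 0.0977), and the mean of its probe sets differed by -0.30 (adjusted p = 0.615). Cd72, a coreceptor of B cells, differed by -1.82 ± 0.32 (SE, adjusted p = 0.0245), a call lost without either Th9 HA array, either Th9 PBAB array, Th17 HA replicate 2 or Th17 PBAB replicate 1 (adjusted p up to 0.0971). The response of Cd72 in Th9 was 0.72 and that of Ighm -0.85. The mean level of the 17 genes was 5.52 and 5.57 in Th17 PBAB and 5.73 and 5.88 in Th17 HA, against 5.30 and 5.51 in Th9 PBAB and 5.52 and 5.62 in Th9 HA. The defining markers Cd79a and Ms4a1 stood between 4.52 and 5.56 in the 8 arrays. Tnfsf8, the CD30 ligand, had a difference of -1.65 ± 0.29 (SE, adjusted p = 0.0245), lost without Th9 HA replicate 1, Th9 PBAB replicate 1, Th17 HA replicate 2 or either Th17 PBAB array (adjusted p up to 0.101). Among 16 costimulatory genes it was the call below 0, and Icos was the call above 0, against 1.1% and 0.607% of all genes. Icos, the inducible costimulator, averaged 10.81 in Th17 PBAB and 11.44 in Th17 HA, against 9.36 in Th9 PBAB and 12.00 in Th9 HA (2 arrays each) and differed by 2.00 ± 0.37 (SE, adjusted p = 0.0276). The Icos call was lost without Th9 HA replicate 1, either Th9 PBAB array, Th17 HA replicate 2 or either Th17 PBAB array (adjusted p up to 0.102).

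S100a6, a calcium-binding protein, fell in both lineages. It read 7.34 and 6.96 in Th17 PBAB and 9.28 and 9.63 in Th17 HA, against 4.05 and 5.19 in Th9 PBAB and 10.07 and 9.77 in Th9 HA, and it fell by 2.30 in Th17 and by 5.30 in Th9. The difference of 3.00 ± 0.46 (SE, adjusted p = 0.0143) was lost without Th17 PBAB replicate 1 (adjusted p up to 0.0628).

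Lineage genes were examined as a list of 30, of which 26 were tested. Il4ra, the receptor chain through which Th9 cultures receive IL-4, was the 1 called above 0, at 2.09 ± 0.37 (SE, adjusted p = 0.0245). It read 10.64 and 10.42 in Th17 PBAB and 9.69 and 8.88 in Th17 HA, against 9.89 and 9.96 in Th9 PBAB and 10.99 and 10.55 in Th9 HA, and the call was lost without Th9 HA replicate 1, either Th9 PBAB array, Th17 HA replicate 2 or either Th17 PBAB array (adjusted p up to 0.0879). Ifng, Il5, Ccr6, Il2, Gata3 and Il4 were called below 0. Over all genes 0.607% were called above 0 and 1.1% below. Gata3, the master factor of type 2 cells, read 5.29 and 5.58 in Th17 PBAB and 7.94 and 7.63 in Th17 HA, against 11.44 and 10.99 in Th9 PBAB and 11.39 and 9.84 in Th9 HA. It fell under PBAB in Th17 (-2.35), had a Th9 response of 0.60 that was not called, and differed by -2.95 ± 0.57 (SE, adjusted p = 0.0319). The Gata3 call was lost without either Th9 PBAB array, either Th17 HA array or either Th17 PBAB array (adjusted p up to 0.121). Il4 read 4.69 and 4.78 in Th17 PBAB and 5.20 and 5.31 in Th17 HA, against 8.58 and 8.69 in Th9 PBAB and 8.07 and 7.77 in Th9 HA, with a difference of -1.24 ± 0.25 (SE, adjusted p = 0.0379), lost without any 1 activated array other than either Th1 HA array (adjusted p up to 0.139).

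Several lineage genes missed the threshold and passed it with the replicate block. Il10, an anti-inflammatory cytokine, read 8.68 and 8.85 in Th17 PBAB and 8.64 and 7.37 in Th17 HA, against 7.42 and 8.02 in Th9 PBAB and 11.33 and 9.56 in Th9 HA, and its difference was 3.48 ± 0.86 (SE, adjusted p = 0.0738), or 0.011 as the adjusted p with the block. Its Th9 HA pair was wide. Il17a rose under PBAB in Th17 (1.64), and its difference was 1.96 ± 0.43 (SE, adjusted p = 0.0502), with a blocked adjusted p of 0.0155. Rora, a nuclear receptor of Th17 cells, differed by 1.83 ± 0.40 (SE, adjusted p = 0.0518) (blocked adjusted p = 0.0103), and Maf, a factor that drives Il10, by 1.30 ± 0.37 (SE, adjusted p = 0.114) (blocked adjusted p = 0.00475). Below 0, Il13 differed by -2.30 ± 0.51 (SE, adjusted p = 0.0533) (blocked adjusted p = 0.0174) and Il12rb2, a chain of the IL-12 receptor, by -1.75 ± 0.45 (SE, adjusted p = 0.0831) (blocked adjusted p = 0.0161). Tbx21, the Th1 factor T-bet, rose in Th9 (1.51) and had a difference of -1.96 ± 0.60 (SE, adjusted p = 0.139), not called with the block (adjusted p = 0.0508). Il9 itself had a difference of -0.73 ± 1.14 (SE, adjusted p = 0.871) and Foxp3 one of -1.22 ± 0.60 (SE, adjusted p = 0.417). Il2ra, the high-affinity chain of the IL-2 receptor, rose by 1.58 in Th17 and by 1.42 in Th9, with a difference of 0.16 ± 0.36 (SE, adjusted p = 0.919), and Il1r1 fell by 1.82 in Th17 and by 1.78 in Th9, with one of -0.04 ± 0.33 (SE, adjusted p = 0.98).

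**Figure D4:**
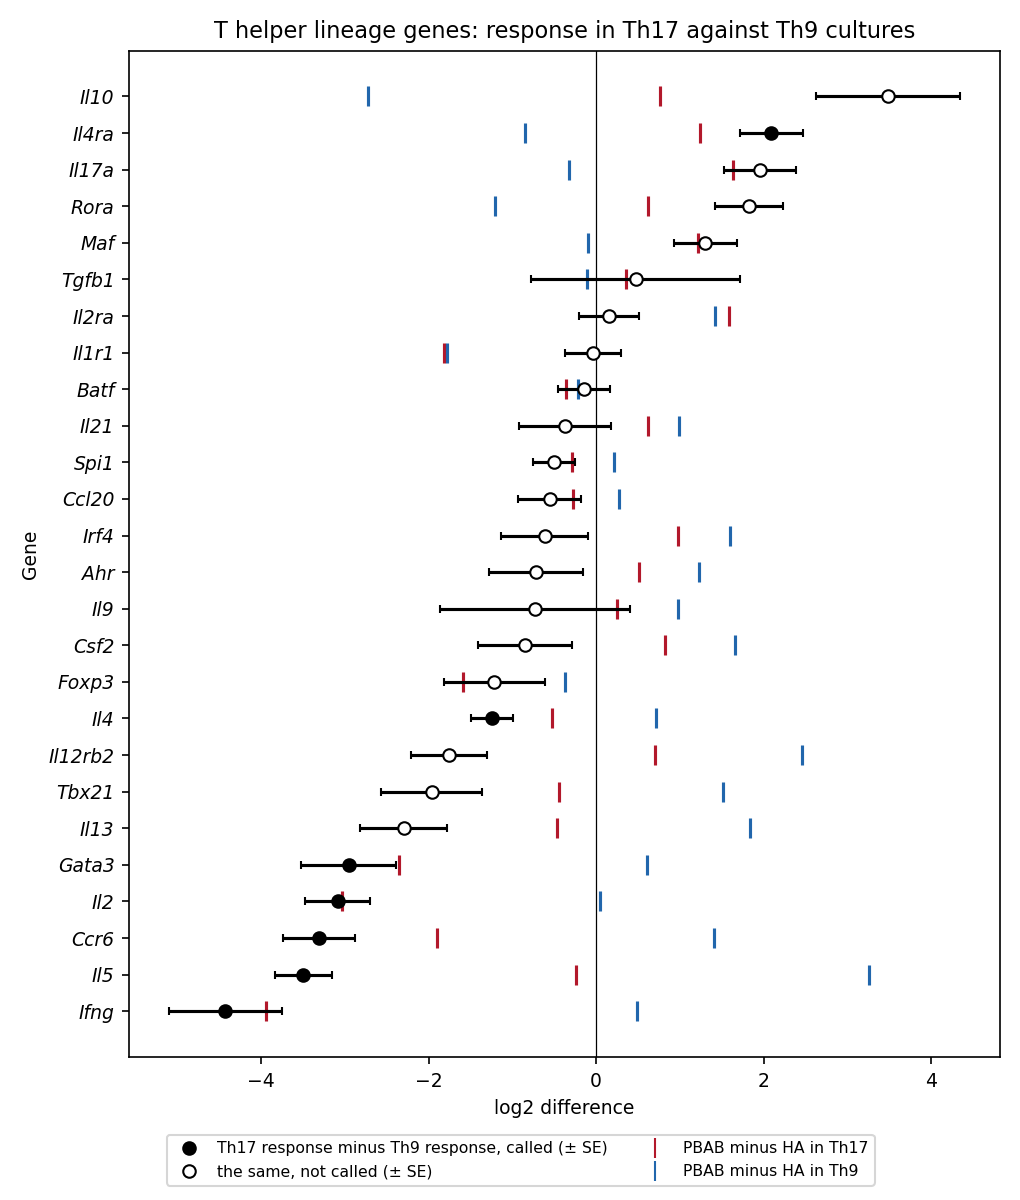
Differences on the log2 scale for the 26 lineage genes tested, from the highest at the top to the lowest. Circles give the Th17 response minus the Th9 response with its SE, filled where called, and the red and blue ticks give PBAB minus HA in Th17 and in Th9. Il4ra is the filled circle above 0, and Il4, Gata3, Il2, Ccr6, Il5 and Ifng are the filled circles below 0.

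Many genes of the cell cycle fell under PBAB. Over all genes 10.4% fell in Th17 and 6.32% in Th9. Among 23 mitosis genes, 21 fell under PBAB in Th17 (median response -1.65) and 5 in Th9 (median -0.72). The list's median level was 8.99 and 7.95 in Th17 PBAB and 9.86 and 10.13 in Th17 HA. In Th9 PBAB it was 9.86 and 9.25, and in Th9 HA 10.28 and 10.17, so the PBAB pairs were wide. All 23 had a difference below 0, with a median of -0.99, against 8341 of 15498 genes below 0 in all. Yet only Ttk, a kinase of the spindle checkpoint, was called (3 with the replicate block), against 1.71% of all genes (9.52% with the block). Ttk read 7.49 and 6.58 in Th17 PBAB and 8.53 and 9.22 in Th17 HA, against 9.31 and 9.01 in Th9 PBAB and 9.03 and 9.10 in Th9 HA, and it was the Th17 PBAB pair that was low. The difference of Ttk was -1.94 ± 0.42 (SE, adjusted p = 0.0485), lost without any 1 activated array other than Th17 HA replicate 1 or Th17 PBAB replicate 1 (adjusted p up to 0.167), and -1.07 with the mean of its probe sets (adjusted p = 0.0942). Cdca8, a subunit of the chromosomal passenger complex, differed by -1.25 ± 0.29 (SE, adjusted p = 0.0602), and Ccna2, cyclin A2, by -1.23 ± 0.35 (SE, adjusted p = 0.114). Of 23 DNA replication genes 19 fell in Th17 and 16 in Th9. Their median difference was -0.76, and limma called none, with 10 at an unadjusted p under 0.05 and 8 called with the block. Across all genes, 2185 of 15498 had an unadjusted p under 0.05 for the difference.

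Other lists held no called difference. Over all genes, 6.66% rose and 10.4% fell in Th17, and 7.39% rose and 6.32% fell in Th9. With the block 9.52% of all genes had a called difference. Among 22 targets of ATF4, the factor induced when amino acids run short, 13 rose in Th17 and 13 in Th9, with medians of 1.05 in Th17 and 1.20 in Th9 and no difference called by limma. Of these differences 1 had an unadjusted p under 0.05, and 3 were called with the block. Nupr1, a stress-induced chromatin protein, rose by 3.40 in Th17 and by 4.50 in Th9, with a difference of -1.10 ± 0.53 (SE, adjusted p = 0.398). Of 23 interferon-stimulated genes 10 fell in Th17 and 13 in Th9, with no difference called by limma, 5 at an unadjusted p under 0.05 and 3 above 0 with the block. Among these Zbp1, a sensor of nucleic acids, differed by 1.70 ± 0.58 (SE, adjusted p = 0.186) (blocked adjusted p = 0.00321). Of 11 interferon-inducible GTPases 7 fell in Th17 and 6 in Th9. For their differences limma called none, with 0 at an unadjusted p under 0.05 and 1 called with the block, and Gbp6 had a difference of -0.65 ± 0.51 (SE, adjusted p = 0.668). A p that misses the threshold does not show that these responses were equal.

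**Figure D5:**
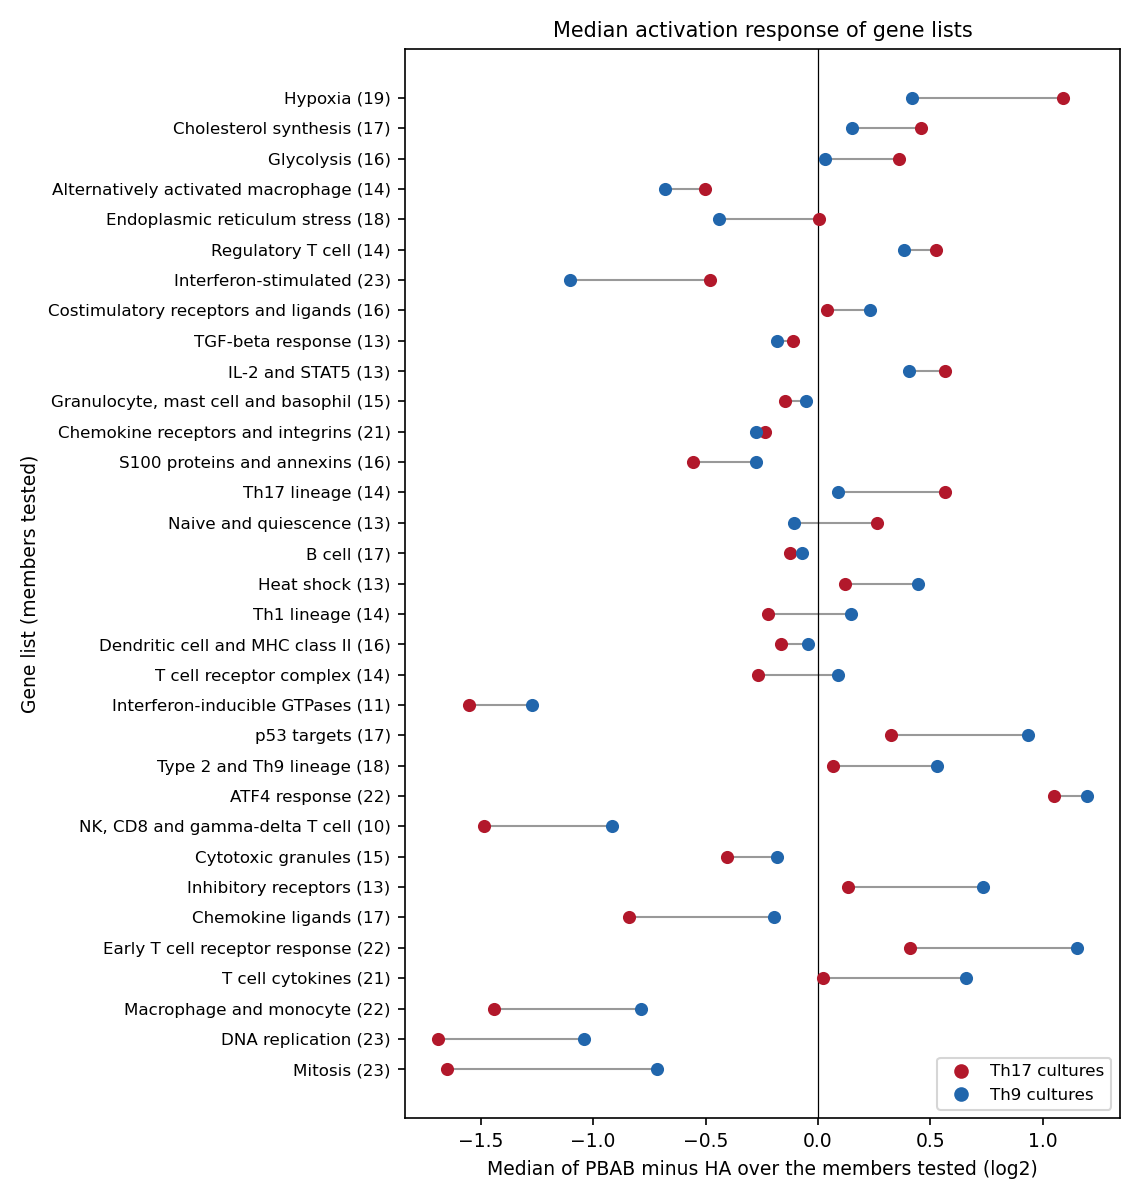
Median of PBAB minus HA (log2, horizontal axis) over the tested members of 33 gene lists, with Th17 cultures in red and Th9 cultures in blue and the number of members tested in brackets. Lists are ordered by the median difference, from 0.71 for hypoxia at the top to -0.99 for mitosis at the bottom.

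The same 265 genes can be read as differences between lineages within an activation. Th17 and Th9 cultures differed in 987 genes under PBAB (6.37%) and in 739 under HA (4.77%). Among the 265, 75 genes were lower in Th17 under PBAB and not called under HA, and 37 were higher there. Under HA alone, 57 were higher and 44 lower in Th17. A further 10 genes were lower in Th17 under PBAB and higher under HA, and 6 were the reverse. Under both activations 8 were higher and 12 lower in Th17, and 16 were called under neither. For Il5 the Th17 minus Th9 difference was -4.66 under PBAB and -1.17 under HA, both called. For P2rx7 it was -0.31 under PBAB, which was not called, and -3.62 under HA. For Tiam1 it was 3.07 under PBAB and -1.97 under HA, both called. The count under PBAB was 458 without Th17 PBAB replicate 2, 509 without Th17 PBAB replicate 1, 467 without Th9 PBAB replicate 1 and 502 without Th9 PBAB replicate 2, and 2351 with the replicate block. The count under HA was 372 without Th17 HA replicate 1, 364 without Th17 HA replicate 2, 374 without Th9 HA replicate 1 and 390 without Th9 HA replicate 2. It was 1831 with the block and 821 with the block within each lineage.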

How the data were processed

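Expression was measured on Affymetrix mouse arrays. The authors deposited RMA values on a log2 scale for 45101 probe sets, per the submitters' processing notes. The RMA software and its version are not given in the sources used here, the log base was read from the range of the values, and the values were used as deposited. Probe sets with 1 symbol in the platform annotation (34958, with 932 of several symbols and 9211 unnamed) gave 18194 genes, each read from the probe set whose mean over the 15 arrays was highest. The 15498 genes above the 40th percentile (5.07) in at least 2 arrays were tested. No detection calls were used, and 63 of the 265 called genes had a group mean below that level.

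Group means were estimated from all 15 arrays in limma 3.58.1 under R 4.3.3, with 6 residual and 4.38 prior degrees of freedom and Benjamini-Hochberg adjustment over all genes. The script was tested on simulated data. With 2 arrays per group, the number of arrays limits the precision. Replicate arrays correlated at 0.986 to 0.989. Deviations of same-numbered arrays correlated at 0.296 to 0.613 in all 6 pairs of the Th17 and Th9 groups, so the numbers were taken as pairs in a block fit. The bioB hybridisation control read 8.95 to 9.50 in replicate 1 and 10.54 to 10.96 in replicate 2 of these groups. The actin 3′ minus 5′ difference was 0.12 to 0.22 in PBAB and 0.05 to 0.11 in HA.

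The genes named are the 12 largest called differences each way with the same sign and a size over 1 in both replicate numbers, the 6 with the largest opposite responses, the lineage genes, and up to 3 members of each gene list with the smallest p. Cd3d and Cd3e were named to check the cell type. The lists and members were chosen with earlier results of these data known. Alternatives were the filter, the normalization, the probe set rule, the arrays fitted, limma's trend and weights, the block, and leaving out each array. The fits that left out an array had no block. They set a group with 1 replicate number against groups with both, so a shift between replicate numbers can enter their values.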

Additional observations from a re-analysis of the deposited data

Results flagged for a closer look

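For 51 named genes the PBAB minus HA response differed between Th17 and Th9 cultures by the test of that difference itself (limma, adjusted over 15498 genes). The values below are the Th17 response minus the Th9 response on the log2 scale, grouped by the group mean that stood apart from the other 3, with no explanation given. Genes high in Th17 PBAB alone were Lbp 4.10 and S1pr3 4.06. Low in Th17 PBAB alone, the differences were Tnfsf8 -1.65, Ttk -1.94, Ipcef1 -4.07 and Ifng -4.43. For genes high in Th17 HA, the values were Cd72 -1.82, Marco -1.95, S100a8 -2.03, Apoe -2.21, Il2 -3.08 and Clec4e -3.42. Ero1a was low in Th17 HA alone, at 2.08. High in Th9 PBAB alone, the differences were Cd274 -1.33, Pdcd1lg2 -2.49, Serpinb6b -2.63, Il5 -3.49, Lad1 -3.57 and Dapl1 -4.45. For genes low in Th9 PBAB, the values were Tiam1 5.04 and Icos 2.00. Genes high in Th9 HA alone were Chil3 5.56, Fgl2 3.65, Il17rb 3.55, Il6 3.54, Cdh1 3.54, Car8 3.51, P2rx7 3.30, Sval1 3.30, Ccl24 2.62 and Eomes 1.40. Low in Th9 HA alone, the differences were Pmaip1 -2.38, Upp1 -3.02 and Btla -3.16. Where no group mean stood apart, the differences above 0 were Metrnl 4.16, Cyp11a1 3.18, S100a6 3.00, Hspa1b 2.35, Hspa1a 2.34 and Il4ra 2.09, and those below 0 were Hspd1 -1.15, Il4 -1.24, Ighm -1.87, Ccl4 -2.31, Nr4a3 -2.62, Gata3 -2.95, Plek -3.22, Ccr6 -3.31, St8sia6 -4.17, Ccl3 -4.29 and Nkg7 -4.32.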

How the results depend on the processing

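The number of genes whose response differed was 265 and ran from 64 to 248 when 1 array was left out. It was 144 with the 8 arrays fitted alone, 1476 with the replicate block and 1362 with the block within each lineage. Of the 144 genes 127 were among the 265, and all 265 were among the 1476. Leaving out 1 array gave 1214 to 2654 genes for the Th17 response, 1056 to 2061 for the Th9 response, 458 to 946 for Th17 minus Th9 under PBAB and 364 to 719 under HA. With the replicate block these 4 counts were 4709, 4056, 2351 and 1831, and within each lineage they were 4568, 3880, 1755 and 821. Other filters, array centring, normalization, probe set rules, trend and array weights kept each of the 5 total counts within 1.5 times the main count. Among the 125 genes named or listed, no called difference changed sign under any alternative run, 197 values of called genes no longer passed the threshold and 119 of other genes newly passed it. No call among the 51 was lost with the block. Fitting the 8 arrays alone lost 14 of the 51, with adjusted p from 0.0506 (Il4ra) to 0.0916 (Ttk), the others being Apoe, Cd274, Eomes, Ero1a, Gata3, Hspa1a, Hspd1, Ighm, Il4, Lad1, Nkg7 and Serpinb6b. The mean of all probe sets lost Cyp11a1, Eomes, Ero1a, Ighm, Nr4a3 and Ttk, and the filter, scaling or array weights lost Nkg7, Cd274, Ttk, Hspa1a or Ccl4. Fewer arrays leave fewer residual degrees of freedom, and other causes of the moves were not tested. No signal over background was available, and 20 of the 51 named calls have a group mean below the filter level of 5.07.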

Other observations

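Genes of ribosome assembly, which process ribosomal RNA and build ribosomal subunits in the nucleolus, mostly had a Th17 response below their Th9 response. The list of 58 genes was written after values had been seen, so its counts are a description with no test. Of 57 tested genes, 16 had a called Th17 response below their Th9 response and 0 were called above it. With the replicate block 43 were called below and 0 above. Over all 15498 genes 1.1% were called below and 0.607% above, and with the block 1004 and 472. The difference was below 0 in 56 of the 57, against 8341 of all genes. The list's median was -1.04, against -0.04 over all genes tested. In Th17 cultures 2 genes of the list rose and 23 fell under PBAB, with a median of -0.60. In Th9 cultures 15 of them rose and 0 fell, with a median of 0.48. Over all genes 6.66% rose and 10.4% fell in Th17, and 7.39% rose and 6.32% fell in Th9. The median log2 level of the list was 8.81 and 9.01 in Th17 PBAB, 9.41 and 9.58 in Th17 HA, 9.54 and 9.21 in Th9 PBAB, and 8.94 and 8.87 in Th9 HA arrays. The Th17 PBAB arrays were below the Th17 HA arrays, and the Th9 PBAB arrays were above the Th9 HA arrays.

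The examples were likewise picked after their values were seen. Lyar, a nucleolar zinc-finger protein, read 8.62 and 8.76 in Th17 PBAB and 9.90 and 10.36 in Th17 HA, against 9.94 and 9.70 in Th9 PBAB and 9.19 and 9.29 in Th9 HA. Its difference was -2.02 ± 0.26 (SE, adjusted p = 0.00685), and it fell in Th17, whereas its Th9 response was not called. Wdr74 and Pdcd11, factors of ribosomal RNA processing, fell in Th17 and rose in Th9. Their differences were -1.42 ± 0.25 (SE, adjusted p = 0.0245) and -1.42 ± 0.24 (SE, adjusted p = 0.0216). Nop56, a core protein of small nucleolar ribonucleoproteins, differed by -1.64 ± 0.26 (SE, adjusted p = 0.0163). The abundant nucleolar proteins were not called: the difference was -0.91 ± 0.31 (SE, adjusted p = 0.184) for Fbl, -0.61 ± 0.28 (SE, adjusted p = 0.372) for Npm1 and -0.34 ± 0.22 (SE, adjusted p = 0.572) for Ncl.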
